A study of Rattus norvegicus with 12 samples.

Results

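The circadian clock genes described here are the transcription factors, repressors and output factors that keep daily time in cells, and they were measured in the colon of rats. All probes outside the controls whose gene name equalled 1 of 10 symbols (Arntl, Clock, Per1, Per2, Per3, Cry1, Cry2, Nr1d1, Dbp and Tef) were taken. This gave 16 probes of 30367 on the array, for 10 of 26514 gene names. For 6 genes there was 1 probe, for 2 genes 2 probes and for 2 genes 3 probes, and the probe with the highest mean signal carried the comparisons.

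Colon was taken from male Wistar rats on postnatal day 60, after colorectal distension (CRD), a balloon stimulus that all animals received. Group C (rats C1 to C4) was kept with the dam and received placebo (saline) by gavage. Group M (M5 to M8) underwent neonatal maternal separation (NMS), an early life stress of 180 min a day from day 2 to day 14, and received placebo. Group D (D9 to D12) underwent NMS and received VSL#3, a mixture of probiotic bacteria, from day 3 to day 60, with a daily dose that the labels give as 18x10E9 in 100 μL of saline. The comparison of Group M with Group C therefore carries the effect of NMS, and that of Group D with Group M the effect of VSL#3 in NMS rats, and the question asked of the clock genes was whether the groups differ in clock phase. The labels give the day of sacrifice and not the hour, and per the study's methods the animals lived in a light/dark cycle and food was withheld before CRD. Each rat is a biological replicate with 1 array of 1 colour.

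In mammals the clock is a loop of transcription. Arntl (also named Bmal1) and Clock form a dimer that activates Per, Cry, Nr1d1, Dbp and Tef through E-box elements, the Per and Cry proteins then repress that dimer, and Nr1d1 (REV-ERB alpha) represses Arntl through ROR elements. As a rule Arntl transcripts are therefore high when Dbp, Tef, Per3 and Nr1d1 transcripts are low, and the reverse, and in the gut, whose peripheral clock also follows feeding, these genes cycle in the epithelium and the muscle wall.

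Of the 10 genes, 9 had a promoter window in the RefSeq sequences of the rat genome (build GRCr8), which runs from upstream of the start site to just past it and has the same length for each gene, and Cry1 had none. The windows were searched on both strands for the E-box CACGTG, the ROR core AGGTCA and its longer form TAGGTCA, the D-box TTATGTAA and TTACGTAA, which Dbp and Tef bind, and the cAMP response element TGACGTCA. A match stood in 3 of the 9 windows, and these stretches are shown because they hold the kinds of element that tie the limbs of the loop to each other. Capitals mark the match, and each is read 5′ to 3′ on the strand of the gene.
Arntl, chr1:176766268-176766327, plus strand: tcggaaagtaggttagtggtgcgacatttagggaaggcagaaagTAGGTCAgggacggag
Per2, chr9:99497153-99497212, minus strand: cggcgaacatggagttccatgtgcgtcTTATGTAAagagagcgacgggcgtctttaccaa
Tef, chr7:115206602-115206661, plus strand: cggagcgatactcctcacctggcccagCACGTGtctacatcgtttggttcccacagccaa

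The longer ROR core began 16 bases before the start site of Arntl, and 2.63% of all 33469 windows hold it. The shorter core lies inside it and stands in 16.2% of windows. The D-box began 192 bases before the start of Per2 (0.893% of windows) and the E-box 198 bases before that of Tef (6.42% of windows). TTACGTAA (0.12% of windows) and the cAMP response element (1.83%) were in none of the 9. These matches are letters in a window and not sites shown to be bound.

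All 16 probes were well above background on all 12 arrays. Levels are given as log2 signal relative to the 75th percentile of the array, so that 0 is the level of that percentile and a difference of 1 is a 2-fold change. Levels of different probes cannot be set against each other on such arrays. The probe of Dbp lies at chr1:96178423-96178482 (build rn4, plus strand), and its last 30 bases, shown because Dbp varied most between rats, read tcaacacaatcctgAATAAAtcttgagaac. Capitals mark the letters of the common polyadenylation signal, a match of letters alone, and the place of the probe in the transcript was not looked up. The other probes of a gene followed the chosen one over the 12 rats, with a Pearson r of 0.989 for Arntl, 0.994 and 0.998 for Dbp, 0.938 and 0.915 for Per3 and 0.819 for Clock, as a description.

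The 75th percentile of the signal was 1434 to 1953 per array, and 75.5% to 77.5% of spots were well above background. Slide 1 carried the arrays of Groups C and M and slide 2 those of Group D, so the slide and the group cannot be told apart wherever Group D is compared. Correlations between rats were taken over the probes that were well above background and had a value on every array. Rat D12 stood apart from the other rats of Group D (r of 0.967 to 0.968, against 0.992 to 0.994 among D9, D10 and D11). M6 stood apart from those of Group M (0.970 to 0.980). The study's methods name 11 arrays and its heat maps lack D12, so the fits used 11 arrays and the values of D12 stand beside them. All 6 markers of colon epithelium were well above background on every array, with a summed signal of 210 to 314 times the 75th percentile, and so were all 5 of smooth muscle. The 5 markers of immune cells had a summed signal of 1.48 to 1.98 in C1, C3, C4, M6, D9, D10 and D11, and of 5.94 to 12.4 in C2, M5, M7, M8 and D12, all 5 being well above background on every array. Markers of enteric neurons and glia summed to 2.14 to 2.77 in Group C, 2.11 to 2.66 in Group M and 2.50 to 3.06 in Group D (2.50 in D12), and those of squamous epithelium and fat to at most 0.878 in any rat.

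Arntl is the activator whose transcript is opposite in phase to most others of the loop. Its level was -1.11, -0.73, 0.05 and 0.71 in the 4 rats of Group C, -0.35, 0.08, 0.69 and 0.02 in Group M, and -1.11, -1.50 and -1.13 in D9 to D11, with -0.63 in D12. All 4 rats of Group D lay below all 4 of Group M, while Group C reached from the level of Group D to above that of Group M. The mean was 0.11 ± 0.43 (SD, n = 4) in Group M and -1.24 ± 0.22 (SD, n = 3) in Group D, a difference of -1.35 (SE 0.40, 2.55-fold lower), which did not pass limma's test over all probes (adjusted p = 0.115). Against Group C the difference of Group D was -0.97 (SE 0.40, adjusted p = 0.803 by limma), and that of Group M was 0.38 (SE 0.37, adjusted p = 0.579). In bulk tissue fewer cells of a type and less RNA per cell cannot be told apart, for this gene and the others.

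Clock, the partner of Arntl, has a transcript that cycles little in many tissues. Its SD within groups over 11 arrays was 0.218, close to the median of 0.211 over probes well above background on every array. The other probe of Clock had an SD of 0.172 in Group C, 0.482 in Group M and 0.088 in D9 to D11. On the chosen probe the level was -2.76, -3.08, -3.01 and -2.76 in Group C, -3.11, -2.57, -2.50 and -2.48 in Group M and -2.79, -2.96, -2.71 and -2.91 in Group D. The groups overlapped, with M5 as the lowest of all 12 rats and the other 3 of Group M as the highest. The difference of Group D from Group M was -0.15, with a 95% interval of -0.52 to 0.21 (adjusted p = 0.635 by limma).

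**Figure D1:**
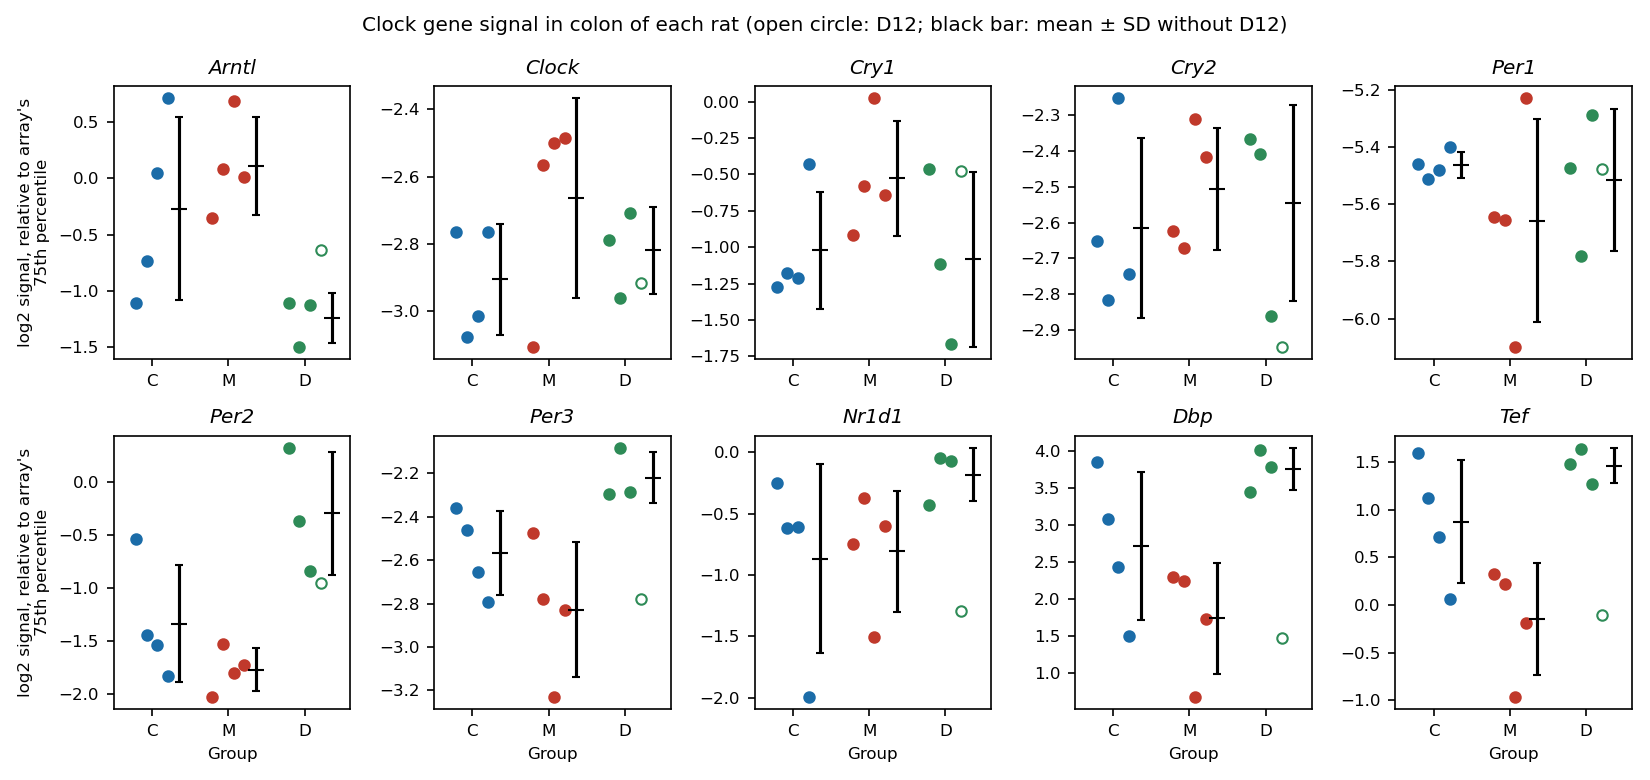
Log2 signal of the 10 clock genes (vertical axes, relative to the 75th percentile of the array, 1 scale per gene) in each rat of Groups C, M and D, with the mean ± SD of the 11 rats in the fit in black and D12 as an open circle. Arntl of Group D lies below every rat of Group M, while Per2, Per3, Dbp and Tef of D9 to D11 lie above, and D12 falls among Group M for Per3, Dbp and Tef.

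Dbp and Tef, transcription factors that read out the loop at D-box elements, differed most between rats. The level of Dbp was 3.85, 3.07, 2.43 and 1.50 in Group C, 2.30, 2.24, 0.69 and 1.73 in Group M, and 3.45, 4.01 and 3.78 in D9 to D11, with 1.48 in D12. D9 to D11 exceeded all of Group M, D12 did not, and C1 stood at the level of Group D while C4 lay below M5, M6 and M8. The difference of Group D from Group M was 2.01 (SE 0.53, 4.02-fold higher, adjusted p = 0.101 by limma), and the other probes gave 1.75 and 1.94. The difference of Group M from Group C was -0.97 (SE 0.49, 1.96-fold lower, adjusted p = 0.271) and that of Group D from Group C 1.03 (SE 0.53, adjusted p = 0.874).

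The level of Tef was 1.60, 1.13, 0.71 and 0.07 in Group C, 0.33, 0.23, -0.96 and -0.19 in Group M, and 1.48, 1.64 and 1.27 in D9 to D11, with -0.10 in D12. The rats stood in nearly the order they had for Dbp, with M7 lowest and D12 again among Group M. Tef was higher in Group D than in Group M by 1.61 (SE 0.38, 3.06-fold, adjusted p = 0.0848 by limma) and lower in Group M than in Group C by 1.02, that is, a difference of -1.02 (SE 0.35, 2.03-fold, adjusted p = 0.138). Group D and Group C differed by 0.59 (SE 0.38, adjusted p = 0.923).

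Of the Per genes, which encode repressors of the loop, Per2 and Per3 did not overlap between Group M and D9 to D11, and Per1 did. Per2, which responds to signals from outside the cell as well as to the loop, had a level of -0.54, -1.44, -1.53 and -1.83 in Group C, -2.02, -1.52, -1.80 and -1.72 in Group M, and 0.32, -0.36 and -0.84 in D9 to D11, with -0.95 in D12. It was the member for which D12 too stayed above every rat of Group M, as it stayed below them for Arntl. The difference of Group D from Group M was 1.48 (SE 0.32, 2.79-fold higher, adjusted p = 0.0830 by limma). From Group C it was 1.04 (SE 0.32, 2.06-fold, adjusted p = 0.692), with C1 overlapping Group D.

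Per3 had a level of -2.36, -2.46, -2.65 and -2.79 in Group C, -2.47, -2.78, -3.23 and -2.83 in Group M, and -2.29, -2.08 and -2.28 in D9 to D11, with -2.78 in D12. On this probe D9 to D11 lay above all rats of Groups C and M, while on both other probes D9 lay below C1, and all 3 probes had D9 to D11 above Group M. Group D exceeded Group M by 0.61 (SE 0.17, 1.52-fold, adjusted p = 0.110 by limma). The other probes of Per3 gave larger differences, 1.24 (SE 0.28, adjusted p = 0.0832) and 1.15 (SE 0.23, adjusted p = 0.0774), and in Group M against Group C they gave -0.84 and -0.60 where the chosen probe gave -0.26.

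Per1, which glucocorticoid and cAMP signals induce at once, lay at -5.51 to -5.40 in Group C, -6.10 to -5.23 in Group M and -5.78 to -5.29 in Group D, D12 included. The ranges were nested, that of Group C being the narrowest. The difference of Group D from Group M was 0.14 (95% interval -0.27 to 0.56, adjusted p = 0.708 by limma).

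Cry1 and Cry2 encode the repressors that act with the Per proteins. Cry1 had a level of -1.27, -1.18, -1.21 and -0.43 in Group C, -0.91, -0.58, 0.02 and -0.64 in Group M and -0.46, -1.12, -1.67 and -0.48 in Group D. M7 was the highest, D11 the lowest, and the groups overlapped. The difference of Group D from Group M was -0.55 (95% interval -1.26 to 0.15, adjusted p = 0.343 by limma), and that of Group M from Group C 0.49 (95% interval -0.16 to 1.15, adjusted p = 0.349). Cry2 lay between -2.95 and -2.25 in the 12 rats, and its differences were 0.11 in Group M against Group C (95% interval -0.24 to 0.47), -0.04 in Group D against Group M (-0.42 to 0.34) and 0.07 in Group D against Group C (-0.31 to 0.45).

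Nr1d1, the repressor of Arntl, had a level of -0.25, -0.61, -0.61 and -1.99 in Group C, -0.75, -0.37, -1.51 and -0.60 in Group M, and -0.43, -0.05 and -0.07 in D9 to D11, with -1.29 in D12. C4, M7 and D12 were low and the groups overlapped. Group D differed from Group M by 0.62 (95% interval -0.25 to 1.50, adjusted p = 0.389 by limma) and Group M from Group C by 0.06 (95% interval -0.75 to 0.87, adjusted p = 0.951).

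**Figure D2:**
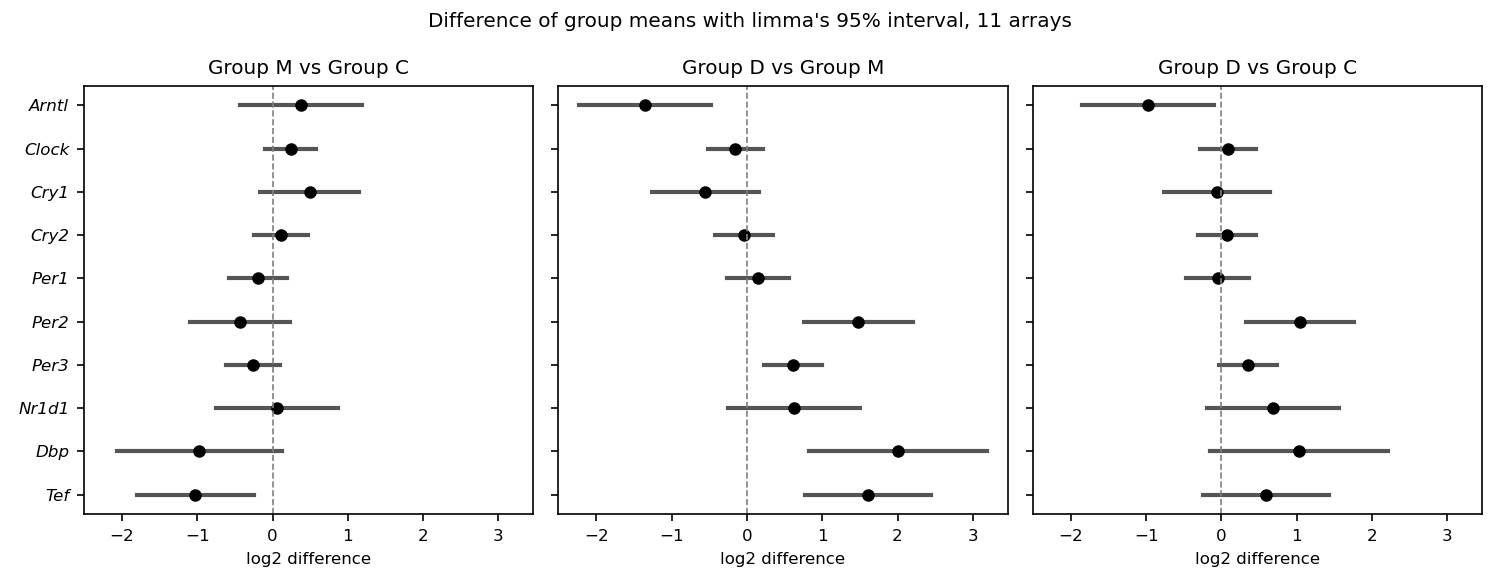
Log2 differences between group means (horizontal axes) for the 10 clock genes in the 3 comparisons over 11 arrays, as points with limma's 95% interval. In Group D against Group M the intervals of Arntl, Per2, Per3, Dbp and Tef do not reach 0, and in Group M against Group C only that of Tef does not.

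In Group D against Group M, limma called 0 of the 10 genes at an adjusted p of 0.05, where it called 0.171% of all probes. At an unadjusted p of 0.05 it took 5 of 10 (Arntl, Per2, Per3, Dbp and Tef) beside 21.6% of all probes. The criterion of the study's methods joins analysis of variance and Tukey's test, each at 0.05, with a 2-fold change of the means, without adjustment over probes. It took 4 (Arntl, Per2, Dbp and Tef) beside 2.66%, and the probes of Per3 that were not chosen also met it (2.37-fold and 2.21-fold). The rats of both groups did not overlap for 5 of 10 genes, beside 15.8% of probes, and with D12 included for 2 of 10, Arntl and Per2, beside 5% of probes. With all 12 arrays the differences were -1.20 for Arntl, 1.31 for Per2, 0.47 for Per3, 1.44 for Dbp and 1.22 for Tef, and limma called 0 of 10. The count depended on M6 and on the weights of the arrays, since limma called 3 genes without M6 (Per2, Dbp and Tef) and the 5 above with array quality weights, settings in which it also called 14.8% and 22.7% of all probes.

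In Group M against Group C, limma called 0 of 10 (0.204% of all probes) at the adjusted threshold and 1, Tef, at the unadjusted p (22.7% of probes), and 2, Dbp and Tef, with array quality weights, which called 28.3% of all probes. The criterion of the methods took 0 (2.31% of probes), and no gene separated the groups (9.23% of probes). Both groups lay on slide 1. In Group D against Group C, limma called 0 of 10 (0.00659% of probes), and 2, Arntl and Per2, at the unadjusted p (5.97%). The criterion took 1, Per2 (0.369%), and Arntl and Per3 of D9 to D11 did not overlap with Group C (7.57%). That held for the chosen probes alone, since the other probe of Arntl and both others of Per3 overlapped, and for Arntl D9 and C1 stood at the same level of -1.11 after rounding. In the F test over the 3 groups limma called 0 of 10 (0.102% of probes) after adjustment and, unadjusted, the same 5 genes as in Group D against Group M (21.6%).

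The median difference of the 10 genes was 0.38 in Group D against Group M, -0.07 in Group M against Group C and 0.22 in Group D against Group C, and that of all probes lay between -0.01 and 0.01. The median size of the difference, sign aside, was 0.62, 0.32 and 0.47 for the clock genes in that order and 0.22, 0.21 and 0.13 for all probes. Each pair of comparisons shares a group, so their values are not independent.

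The summed signal of the immune markers moved with these comparisons, being high in 3 of the 4 rats of Group M and low in D9 to D11. Among these markers Itgam did not, differing by -0.16 in Group M against Group C and by -0.006 in Group D against Group M. Markers of enteric neurons and glia summed to 2.93 to 3.06 in D9 to D11 and to at most 2.66 in Group M. In Group D against Group M, 3 of these 5 genes passed an unadjusted p of 0.05 by limma, and so did 3 of the 5 immune markers. Both counts stand beside 21.6% of all probes, and in either list 0 of 5 passed an adjusted p of 0.05. Markers of skeletal muscle summed to 0.532 to 1.103 in Group C, 1.15 to 1.64 in M5, M7 and M8, 0.625 in M6 and 0.704 to 0.915 in Group D. Only Acta1 of these markers followed that sum, differing by 1.08 in Group M against Group C and by -0.859 in Group D against Group M. In the same order Ckm differed by 0.012 and 0.256, Mylpf by -0.029 and -0.109, and Myh2 by -0.937 and -0.377. Of the smooth muscle markers, Acta2, Cnn1 and Des differed by 0.46, 0.37 and 0.51 in Group M against Group C. In Group D against Group M these genes differed by -0.47, -0.48 and -0.49. The other smooth muscle markers did not follow, with -0.12 and 0.30 for Myh11 and 0.01 and 0.04 for Tagln. The part of these cell types in the differences was not tested. In M6, whose summed immune signal was as low as that of D9 to D11, Arntl stood at 0.08, Per2 at -1.52, Dbp at 2.24 and Tef at 0.23, within the range of the other rats of Group M for Arntl, Dbp and Tef. In D12, whose summed immune signal was the highest of all, Arntl and Per2 lay on the side of Group D, and Dbp, Tef and Per3 among Group M. C1 and C4, which spanned the range of Group C for Dbp, Tef, Arntl, Per2, Per3 and Nr1d1, had the same summed immune signal of 1.86. Their sums were also close for epithelium (265 and 268) and for enteric neurons and glia (2.77 and 2.75). The sums differed for smooth muscle (70.2 in C1 and 91.8 in C4), fibroblast (71.7 and 90.9), skeletal muscle (0.532 and 1.103) and fat (0.878 and 0.197).

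Rats of a single group also lay far apart in these genes. In Group C, Dbp was 5.11-fold, Arntl 3.52-fold, Nr1d1 3.34-fold, Tef 2.88-fold and Per2 2.44-fold apart between the lowest and the highest rat, which were C1 and C4 in every case. C1 was high for Dbp, Tef, Per2, Per3 and Nr1d1 and low for Arntl and Cry1, and C4 was the reverse. In Group M, M7 was the highest for Arntl and Cry1 and the lowest for Dbp, Tef, Per1, Per3 and Nr1d1, with a range of 3.06-fold for Dbp and 2.06-fold for Arntl. In Group D, D12 was the lowest for Dbp, Tef, Per2, Per3, Cry2 and Nr1d1 and the highest for Arntl, with a range of 5.77-fold for Dbp and 3.34-fold for Tef.

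**Figure D3:**
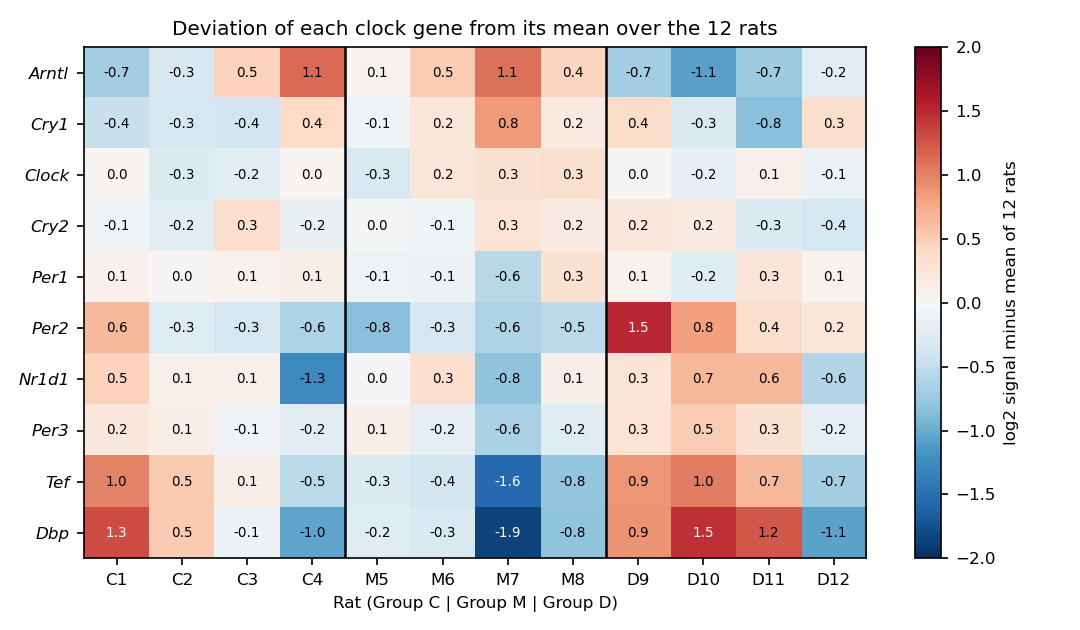
Deviation of each clock gene (rows) from its own mean over the 12 rats (columns, by group), in log2 units from blue (below) to red (above). C1, D9, D10 and D11 show high Dbp, Tef, Per2 and Nr1d1 with low Arntl, and C4 and M7 show the reverse.

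The SD of the log2 signal within groups over 11 arrays was 0.776 for Dbp, 0.573 for Arntl, 0.570 for Nr1d1, 0.543 for Tef, 0.465 for Per2 and 0.457 for Cry1. Among the 20305 probes that were well above background and had a value on every array, whose median SD was 0.211, these stood at percentiles 97.6, 94.5, 94.4, 93.7, 90.7 and 90.3. Per1, Per3, Cry2 and Clock stood between percentiles 52.2 and 62.9. For Per3 this place is that of the chosen probe, whose SD was 0.193 in Group C, 0.310 in Group M and 0.118 in D9 to D11. Its other probes had SDs of 0.395, 0.475 and 0.240, and of 0.429, 0.239 and 0.262, in the same order. Over all 12 rats the range was 10.01-fold for Dbp, 6.06-fold for Tef, 5.09-fold for Per2, 4.62-fold for Arntl and 3.85-fold for Nr1d1.

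**Figure D4:**
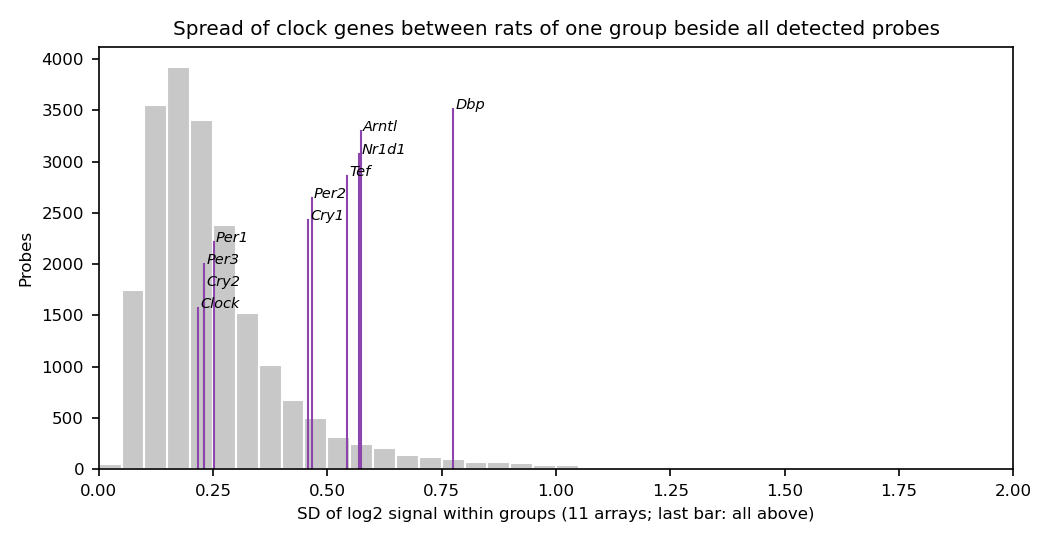
Number of probes (vertical axis) by the SD of log2 signal within groups over 11 arrays (horizontal axis), for probes well above background on every array, with the 10 clock genes as lines whose heights carry no meaning. Dbp, Arntl, Nr1d1, Tef, Per2 and Cry1 lie in the upper tail, and Clock, Cry2, Per3 (the chosen probe) and Per1 near the middle.

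Whether the activating and the repressed limb moved in opposite directions from rat to rat was asked with Arntl as the measure for the 9 other genes. Over the 12 rats Pearson's r with Arntl was -0.893 for Per3 (permutation p = 8e-05, Spearman's rho -0.888 with permutation p = 0.00026) and -0.882 for Dbp (permutation p = 0.00024, rho -0.825 with p = 0.00155). It was -0.852 for Tef (permutation p = 0.00064, rho -0.804 with p = 0.00251) and -0.799 for Per2 (permutation p = 0.00181, rho -0.825 with p = 0.0018). These p-values, from 100000 two-sided permutations in each of 9 relations, are not adjusted. The permutations moved rats across groups and slides, so the p-values also carry the differences between groups. With the group means removed, r was -0.845 for Per3, -0.881 for Dbp, -0.870 for Tef and -0.546 for Per2. Per3, Dbp and Tef were thus low in the rats in which Arntl was high, and Per2 less clearly so within groups.

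For Nr1d1 r was -0.759 (permutation p = 0.00368, rho -0.727 with p = 0.00978) and for Cry1 it was 0.627 (permutation p = 0.0298, rho 0.566 with p = 0.0583). Clock (r = 0.399, permutation p = 0.196, rho 0.336 with p = 0.286), Per1 (r = -0.218, p = 0.511, rho -0.119 with p = 0.715) and Cry2 (r = 0.194, p = 0.539, rho 0.147 with p = 0.652) gave no relation past 0.05 by permutation. Without C4 and M7, the rats farthest from the median of Arntl, r was -0.884 for Per3, -0.816 for Dbp, -0.810 for Tef and -0.793 for Per2. It fell to -0.459 for Nr1d1 and 0.358 for Cry1, whose relations were thus weaker without those rats.

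Within slide 1, which holds the 8 rats of Groups C and M, r was -0.935 for Dbp (exact permutation p = 0.00131), -0.865 for Per3 (exact p = 0.00518) and -0.863 for Tef (exact p = 0.00747). It was 0.840 for Cry1 (exact p = 0.00955), -0.778 for Nr1d1 (exact p = 0.0256) and -0.697 for Per2 (exact p = 0.0426). Spearman's rho within slide 1 was -0.857 for Dbp (exact permutation p = 0.0107), -0.8095 for Per3 (p = 0.0218), -0.762 for Tef (p = 0.0368) and 0.833 for Cry1 (p = 0.0154). For Nr1d1 it was only -0.571 (exact permutation p = 0.151) and for Per2 -0.548 (p = 0.171), so the relations of Nr1d1 and Per2 did not hold by rank there. The permutations within slide 1 likewise crossed Groups C and M. Slide 2 holds 4 rats, too few for a value of its own.

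**Figure D5:**
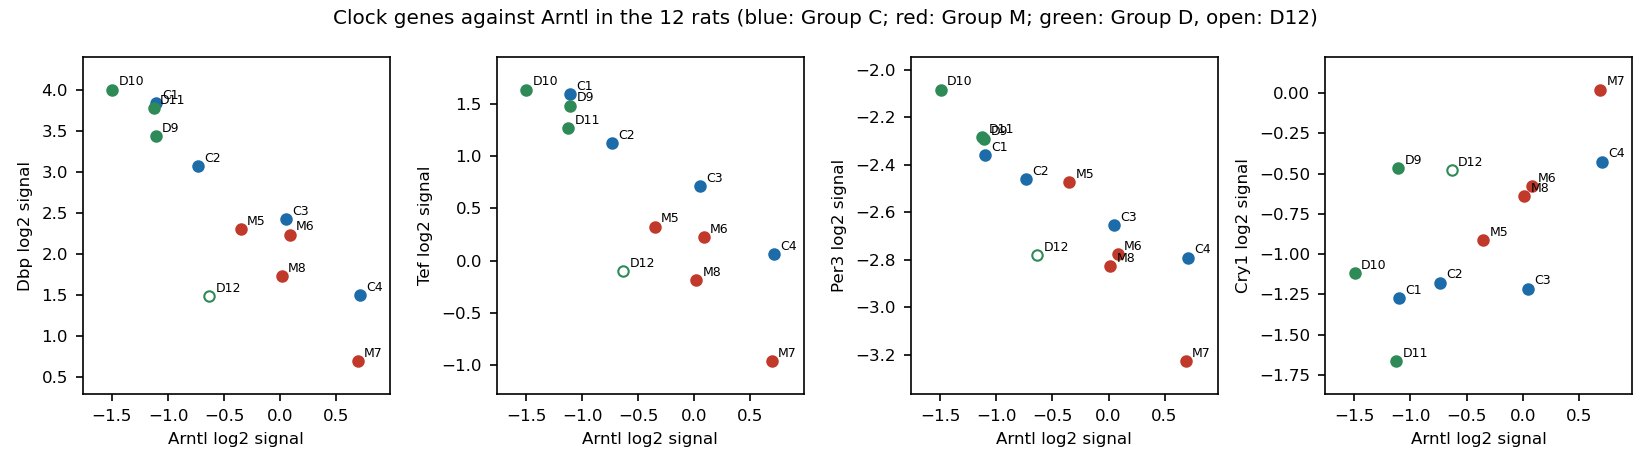
Log2 signal of Dbp, Tef, Per3 and Cry1 (vertical axes) against that of Arntl (horizontal axes) in the 12 rats, 1 point per rat, coloured by group with D12 open. Dbp, Tef and Per3 descend with Arntl in Groups C and M as well as across all groups, D12 lies below rats of similar Arntl for Dbp and Tef, and Cry1 ascends with more scatter.

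A slope on Arntl with the groups as a factor removes the group means and was fitted for every probe over the 12 arrays. The slope was -1.52 (SE 0.26) for Dbp, -1.05 (SE 0.20) for Tef, -0.92 (SE 0.20) for Nr1d1, -0.40 (SE 0.10) for Per3, -0.46 (SE 0.23) for Per2 and 0.56 (SE 0.20) for Cry1, in log2 units per log2 unit of Arntl. By p, Dbp was 8th, Tef 11th, Nr1d1 26th, Per3 55th, Cry1 319th and Per2 1265th among 30366 probes. None passed the adjusted threshold, since limma called 0 of the 9 genes (adjusted p = 0.682 for Dbp, 0.773 for Tef and 0.9998 for the others) and 0.00329% of probes, which was the other probe of Arntl itself (slope 0.98, adjusted p = 0.0184). At an unadjusted p of 0.05, 4 of 9 fell on the side of lower signal with higher Arntl (Per3, Nr1d1, Dbp and Tef), beside 1.36% of probes, and 1 on the other side (Cry1), beside 1.37%.

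Among 11772 named genes well above background on all arrays, the genes most like Dbp over the 12 rats were Tef (r = 0.978), Per3 (0.949), Nr1d2 (0.939), Bri3 (0.904) and Cytl1 (0.900). Those most opposite were Nfil3 (-0.962), Plekhm1 (-0.892), Osbpl3 (-0.883), Arntl (-0.882) and Slfn2 (-0.881). For Arntl the most alike were Lrrc66 (0.937), Adam17 (0.924), Tnfrsf11a (0.887), Rtp3 (0.881) and Aqp2 (0.865), and the most opposite Irf2bp1 (-0.898), Per3 (-0.893), Dbp (-0.882), Pbx2 (-0.880) and Lenep (-0.865). These are descriptions over rats that share slides and groups. With the group means removed, r with Dbp was 0.985 for Tef, 0.928 for Per3, 0.944 for Nr1d2 and -0.948 for Nfil3.

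Of 12 other clock regulators 11 were measured, Ciart being unmatched, and limma called 0 in each comparison. At an unadjusted p of 0.05 it took 1 in each, beside 22.7% of all probes in Group M against Group C, 21.6% in Group D against Group M and 5.97% in Group D against Group C. In Group M against Group C it was Bhlhe40 (0.65, unadjusted p = 0.0132 by limma). In Group D against Group M it was Nfil3, and in Group D against Group C Arntl2 (-0.24, unadjusted p = 0.0452 by limma). Nfil3, a repressor that competes with Dbp and Tef for the D-box, had a level of -4.21, -3.86, -2.71 and -1.23 in Group C, -2.33, -1.85, -0.94 and -1.86 in Group M, and -4.27, -4.05 and -3.80 in D9 to D11, with -1.21 in D12. It mirrored Dbp rat by rat, high in C4, M7 and D12 and low in C1, D9, D10 and D11. Group D differed from Group M by -2.30 (SE 0.62, adjusted p = 0.101 by limma) and Group M from Group C by 1.26 (SE 0.57, adjusted p = 0.224).

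Nr1d2 (REV-ERB beta), the paralogue of Nr1d1, lay at -4.04 to -2.71 in Group C, -4.53 to -3.29 in Group M and -3.99 to -2.73 in Group D, D12 being the lowest of its group. Its slope on Arntl was -0.84 (adjusted p = 0.773 by limma). Timeless differed by -0.84 between Groups D and M (adjusted p = 0.238), and Bhlhe41, a repressor at E-boxes, by 0.75 between Groups D and C (adjusted p = 0.879), the last being well above background in only 2 rats of Group C. Rorb and Hlf did not rise well above background in any rat.

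Of 10 kinases, phosphatases and ubiquitin enzymes that act on clock proteins 9 were measured, Fbxl21 being unmatched, and limma called 0 in each comparison, also at an unadjusted p of 0.05. The sizes were small. Usp2 differed by 0.28 between Groups D and M and by -0.27 between Groups M and C, Csnk2a1 by -0.18 and 0.21, and Fbxw11 by 0.24 between Groups D and C.

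All 10 clock-controlled output genes were measured, and limma called 0 (unadjusted, 3 in Group M against Group C, 3 in Group D against Group M and 1 in Group D against Group C, beside 22.7%, 21.6% and 5.97% of all probes). Ppara, a nuclear receptor for fatty acids, stood at -4.46 to -3.36 in Group C, at -6.11 to -4.33 in Group M and at -3.89 to -3.73 in D9 to D11, with -5.98 in D12. It differed by -1.53 (SE 0.36, adjusted p = 0.0967 by limma) in Group M against Group C and by 1.52 (SE 0.39, adjusted p = 0.0962) in Group D against Group M. Slc9a3, the sodium/proton exchanger of absorptive epithelium, differed by -2.22 (SE 1.11, adjusted p = 0.262) and 3.02 (SE 1.19, adjusted p = 0.184) in the same comparisons, was lowest in C2, M5, M7, M8 and D12, the rats with high immune markers, and was well above background in 3 of the 4 rats of Group D.

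All 9 genes that glucocorticoid, cAMP or stress signals induce were measured, and limma called 0 (unadjusted, 2, 5 and 2 in Group M against Group C, Group D against Group M and Group D against Group C, beside the same 22.7%, 21.6% and 5.97% of probes). Fkbp5, a glucocorticoid-induced chaperone, lay at -0.94 to 0.07 in Group C, 0.32 to 0.91 in Group M and 1.28 to 2.17 in Group D, D12 included, so that no groups overlapped. It differed by 1.01 (SE 0.23, adjusted p = 0.0932 by limma) between Groups M and C, by 0.93 (SE 0.25, adjusted p = 0.101) between Groups D and M, and by 1.94 (SE 0.25, adjusted p = 0.123) between Groups D and C, and with all 12 arrays the last was 2.08 (adjusted p = 0.0496). Over 11 arrays, 9.23% of all probes likewise did not overlap between Groups M and C. The share was 15.8% between Groups D and M and 7.57% between Groups D and C.

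Zbtb16, also induced by glucocorticoid, differed by 2.58 between Groups D and C (SE 0.76, adjusted p = 0.656) and was well above background in 2 rats of Group C. Other genes of the list went down in Group M against Group C, with -0.47 for Tsc22d3, -0.36 for Sgk1, -0.35 for Klf9 and -0.12 for Dusp1. Fos and Sik1 went up there, by 0.68 and 0.67. In Group D against Group M the differences were 1.04 for Tsc22d3, 0.77 for Sgk1, 0.56 for Klf9, 0.06 for Dusp1, 0.23 for Fos and -0.77 for Sik1. Crem, a cAMP-responsive factor, lay at -1.92 to -1.07 in Group C, -0.52 to 1.24 in Group M and -1.90 to -1.36 in D9 to D11, with 0.98 in D12. It differed by 1.79 (SE 0.36, adjusted p = 0.0867 by limma) between Groups M and C and by -1.73 (SE 0.39, adjusted p = 0.0832) between Groups D and M. In the same order Per1, which the same signals induce but whose probe gave a low signal, differed by -0.19 and 0.14.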

How the data were processed

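Per the file headers, the scanner software subtracted background and corrected trends across each array, and the authors deposited the processed intensities on a linear scale, not normalized between arrays. The deposited matrix of the authors holds quantile normalized log2 values. Control and outlier spots were left out here, the log2 of the 75th percentile was subtracted from log2 intensity, and spots of a probe were averaged. Groups were compared with limma 3.58.1 in R 4.3.3 (lmFit, eBayes, 3 groups, 11 arrays), p-values being adjusted by Benjamini-Hochberg over every probe, with a threshold of 0.05. The criterion of the methods was computed on the same values. Slopes on Arntl used 12 arrays and the groups as a factor. Permutations used numpy, with ranks from scipy, and the limma procedure was tested on simulated data. Probe positions are those of rn4 in the files, and the rn4 annotation was not used here. Named are all 10 genes, and of each further list the genes past the threshold or else the 2 largest differences per comparison, apart from some results that are not reported here. The members and lists were chosen with earlier results of these data known. Alternatives were all 12 arrays, other background corrections, scalings, filters, weights, priors, models and probe rules, the authors' matrix, the replicate number as a block, and each rat left out. Precision is limited by the number of arrays.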

Additional observations from a re-analysis of the deposited data

Results flagged for a closer look

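In 2 of 30 checked sets of 4 rats (10 genes in 3 groups), 1 rat stood apart by Dixon's gap test at the 95% level, which chance alone gives in about 1 of 20 sets. The first was Clock in M5 of Group M, at a log2 level of -3.11, where the gap to the nearest rat was 0.868 of the range of the group. The second was Cry1 in C4 of Group C, at -0.43, with a gap of 0.886 of the range. In C4 Arntl was also the highest and Dbp the lowest of Group C. The immune marker sum was the highest of Group M in M5, and its part was not tested.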

How the results depend on the processing

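Of the 10 genes, limma called 0 in every comparison in the fit as reported. In Group D against Group M the count was 2 with normexp background correction (Per2 and Tef), 5 with array quality weights (Arntl, Per2, Per3, Dbp and Tef), 4 by the criterion of the methods, 0 to 3 with each rat left out, and 3 without C2 and M6, an alternative chosen after seeing the data. The 3 came from leaving out M6 (Per2, Dbp and Tef). In Group M against Group C the count was 2 with array quality weights (Dbp and Tef), which called 28.3% of all probes there, and in Group D against Group C 1 by the criterion of the methods. In the F test it was 4 with array quality weights, 0 to 2 with each rat left out (2 without M6), and 2 without C2 and M6, beside 25.9%, 13.2% (without M6) and 18.1% of all probes. The cause was not tested. In Group D against Group M, 1.09%, 22.7%, 14.8% and 17.5% of all probes were called with normexp, with weights, without M6 and without both, against 0.171% as reported. Values in other settings stayed on their side of the threshold and no called value changed sign, and 0 of the 9 slopes on Arntl passed in any of 19 alternatives. Over the settings the difference of Group D from Group M was -1.51 to -1.16 for Arntl, 1.17 to 1.75 for Per2, 0.47 to 0.998 for Per3, 1.44 to 2.19 for Dbp and 1.22 to 1.77 for Tef.

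The replicate numbers of the labels did not pair the rats, since residuals of rats with the same number correlated at -0.72 to 0.58 (median -0.22) and of other rats at -0.79 to 0.77 (median 0.05). With the replicate block 0 of the 10 genes were called in each comparison, and over all probes 1 in Group M against Group C and 1 in Group D against Group M.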
